A study of Mus musculus with 10 samples.

Results

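Chemokines are small secreted or membrane-anchored proteins that direct the movement of leukocytes and other cells, and they act through G protein-coupled receptors. The chemokine ligands (Ccl, Cxcl and Cx3cl1), their conventional receptors (Ccr, Cxcr and Cx3cr1) and the atypical receptors (Ackr) are described here in mouse Achilles tendon after deletion of Mkx. Members were chosen by gene symbol alone, which gave 64 of the 32285 gene rows of the count table. Of these, 57 lie on chromosomes and 7 are copies on unplaced scaffolds, and they carry 59 distinct symbols. The count filter kept 35 members for testing, 22 ligands and 13 receptors.

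RNA came from the Achilles tendon in 10 samples, from mice given tamoxifen at 20 mg/kg when 6 weeks old and sampled 4 weeks later, so controls and knockouts share that treatment. The knockout genotype, Mkx-CreER/flox (3 libraries), carries Mkx-CreER, a Cre recombinase that tamoxifen activates, and a floxed Mkx allele. The Mkx-CreER/+ controls (3 libraries) have the Cre allele without a floxed one, and the Mkx flox/+ controls (4 libraries) have a floxed allele without Cre. In the series text the second control is written Mkx-flox, so its number of floxed copies is not settled here. By its name CreER is driven by Mkx, and so acts where Mkx is active. That it leaves its own Mkx allele intact is nowhere stated. Whether the libraries of a genotype come from separate mice is not spelled out beyond their sample labels, so p-values measure the spread between these samples. Mkx codes for Mohawk, a homeobox factor that drives tendon gene expression. Its level was 29.7 ± 3.19 CPM (SD, n = 3) in Mkx-CreER/flox and 92.9 ± 1.30 (n = 3) in Mkx-CreER/+. In Mkx flox/+ it was 159.7 ± 29.6 (n = 4), with no overlap between genotypes. CPM are counts normalized to library size, with scaling between libraries by the TMM method of edgeR.

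Library totals lay between 8680934 and 22656417 counts, at which 3 counts, the limit that a count of 0 allows, equal 0.126 to 0.36 CPM (counting error only). The summed tendon cell markers were 23870 to 31320 CPM in Mkx-CreER/flox, 39950 to 51450 in Mkx-CreER/+ and 62220 to 125600 in Mkx flox/+, and none of the 10 genes was at 0. Skeletal muscle markers summed to 78280 to 157100, 34510 to 91660 and 19140 to 63010 CPM in the same order, so each dissection held muscle RNA. Knockout library 1 lay above every control, and the other 2 knockout libraries lay below Mkx-CreER/+ 2 and above the other controls. Of 9 listed epidermal genes, the keratinocyte genes Krt5 and Krt14 were at 0 in every library. The list summed to 18.5 to 30.5, 22.6 to 47.9 and 23.2 to 35.4 CPM in the same order. Of the 5 epidermal genes tested, 1 (Krtdap) fell by edgeR against both controls and against Mkx flox/+, beside 1.62% and 2.9% of all genes. Macrophage markers summed to 810 to 954 CPM in Mkx-CreER/flox, 1191 to 2873 in Mkx-CreER/+ and 1756 to 2865 in Mkx flox/+. All 16 listed macrophage genes were detected, and 11 of them fell in the knockout against both controls by edgeR, beside 1.62% of all tested genes passing as lower. That count was 0 without Mkx-CreER/+ 1 or 2 or knockout library 4, 1 without knockout library 1, and 0 with a skeletal muscle list score as a covariate. It was 0 against Mkx-CreER/+ by edgeR (13 at an unadjusted p under 0.05, 11 by DESeq2 and 10 by limma voom). Library Mkx-CreER/+ 4 had the lowest macrophage sum of the 7 controls.

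Homeostatic chemokines such as Cxcl12 are made steadily by stromal cells and hold or place resident cells, whereas inflammatory chemokines of the CC and CXC families are switched on in macrophages, fibroblasts and endothelium and recruit monocytes, neutrophils and lymphocytes. Conventional receptors signal through Gi proteins. Atypical receptors bind chemokines without G protein signalling and remove, carry or present them. In tendon, tenocytes and resident macrophages are known sources of chemokines, and the system is studied mostly in injury and healing.

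Against both controls together, 2 genes of the chemokine system fell by edgeR and the other tested members did not pass by that test. Ccr1, a receptor of monocytes, macrophages and neutrophils, stood at 32.6% of the control level. Cxcl16, a membrane-anchored ligand, stood at 51.1%. Against Mkx flox/+ alone, Ackr2, a scavenger receptor of inflammatory CC chemokines, fell to 38.9% and Cx3cl1, the ligand fractalkine, to 44.8%, besides Ccr1 and Cxcl16. No member rose in any comparison by edgeR's quasi-likelihood test with Benjamini-Hochberg adjustment over all 16017 genes tested at 0.05, whereas 3.03% of all genes rose against both controls. At an unadjusted p under 0.05, 1 member was higher against both controls (Cxcl12, beside 11.9% of all genes) and 2 against Mkx flox/+ (Cxcl12 and Ccl11, beside 12.7%). DESeq2 called 0 members higher in these comparisons and limma voom called those same 2 higher against Mkx flox/+, beside 8.71% of all genes.

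In numbers, 2 of 35 members passed against both controls, where 4.65% of all tested genes passed and 1.62% passed as lower. Against Mkx flox/+ 4 of 35 passed, all lower, beside 7.27% of all genes passing and 2.9% passing as lower. Both shares rest on very few genes. Against both controls DESeq2 called 4 members, all lower (Ackr2 and Ccl24 besides those 2), beside 9.04% of all genes called and 3.85% called lower. There limma voom called 7, all lower (Ccr1, Cxcl16, Ackr2, Ackr3, Ackr4, Ccl9 and Cx3cr1), beside 18.7% of all genes called and 8.97% called lower. Against Mkx flox/+ DESeq2 called 5 and limma voom 9, beside 11.6% and 17.8% of all genes. All knockout libraries lay below all Mkx flox/+ libraries for 7 of 35 members (Ccr1, Cxcl16, Ackr2, Cx3cl1, Ackr3, Ackr4 and Cxcr4), beside 9.5% of all genes. Against Mkx-CreER/+ 0 of 35 passed by edgeR, beside 0.00624% of all genes, which is 1 gene, Mkx itself. At an unadjusted p under 0.05 that comparison held 6 members, all lower, against 10.7% of all genes in either direction. DESeq2 called 1 of the 27 members to which it gave an adjusted p there (Ccr1, beside 0.809% of all genes) and limma voom called 3 (Ackr2, Ccr1 and Cxcl16, beside 4.46%). Against both controls the count was 0 without Mkx-CreER/+ 1 or 2 or knockout library 4. Without knockout library 1 it was 1, Cx3cr1, with Ccr1 and Cxcl16 both lost. Without Mkx flox/+ 1, 2 or 3 it was 1, Ccr1. Against Mkx flox/+ it was 1, Ccr1, without knockout library 4 or Mkx flox/+ 1 or 3, and against Mkx-CreER/+ it was 1, Cxcl16, without Mkx-CreER/+ 4. How many of all genes passed in each of these left-out fits is not given here. The counts therefore do not show whether the lost calls are particular to the members. Macrophage marker calls against both controls were also lost without Mkx-CreER/+ 1 or 2 or knockout library 4. All 3 comparisons use the same Mkx-CreER/flox libraries, so they do not stand for each other. The fold changes of members lay below 0 for 25 of 35 against both controls, where 48.5% of all genes did, with a median log2 fold change of -0.40 against 0.02 over all genes. The direction of the members was thus lower more often than that of all genes, a description with no test.

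**Figure D1:**
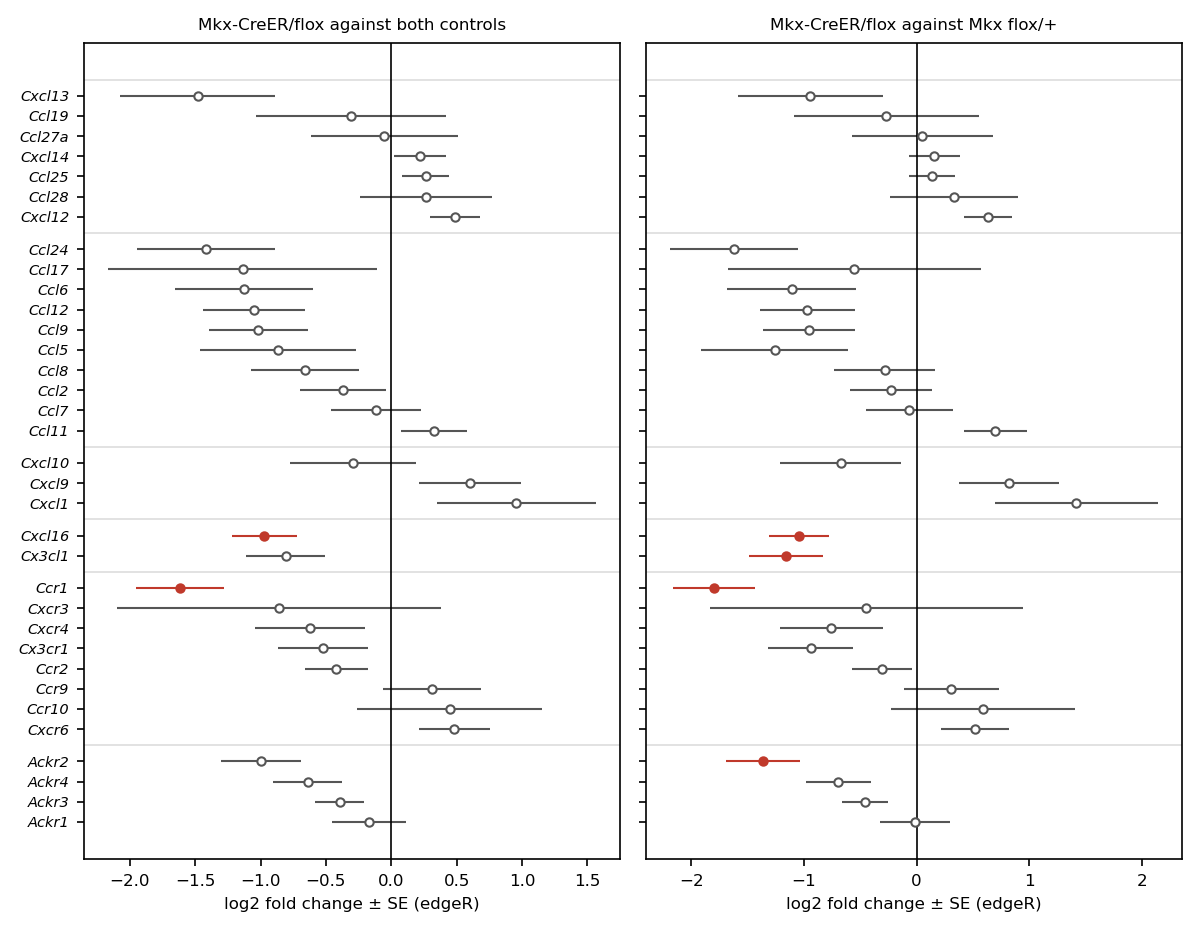
Log2 fold change of 34 of the 35 tested chemokine and receptor genes (x axis, log2 units, bars ± 1 SE from edgeR) in Mkx-CreER/flox against both controls (left) and against Mkx flox/+ (right), grouped from top to bottom as constitutively made, inducible CC, inducible CXC and membrane-anchored ligands, conventional receptors and atypical receptors. Filled red points passed at an adjusted p under 0.05: 2 on the left and 4 on the right, all below 0.

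Levels can be compared between genes only per length, so CPM per kb of exon was used for the order. The highest mean was that of Ackr3 at 31.3 CPM per kb (mean of 10 libraries), which exceeded 93.6% of tested genes. Cxcl12, the ligand that Ackr3 scavenges, was next at 16.3 CPM per kb and exceeded 86.5%. Ccl8 at 12.7, Cxcl16 at 12.4 and Ackr1 at 10.4 CPM per kb followed. The ranges of Cxcl12, Ccl8, Cxcl16 and Ackr1 over the 10 libraries overlapped. So did those of Ackr3 and Cxcl12 and of Ackr3 and Ccl8, so the ranges alone do not resolve the order. Within each library Ackr3 lay above Cxcl12 and Ccl8 per kb. Cxcl12, Ccl8, Cxcl16 and Ackr1 changed places between libraries, so their order is not resolved. At the other end, Ccr9, Ccr10, Cxcr3, Cxcl1 and Ccl28 lay between 0.291 and 0.412 CPM per kb, each below more than 90% of tested genes.

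**Figure D2:**
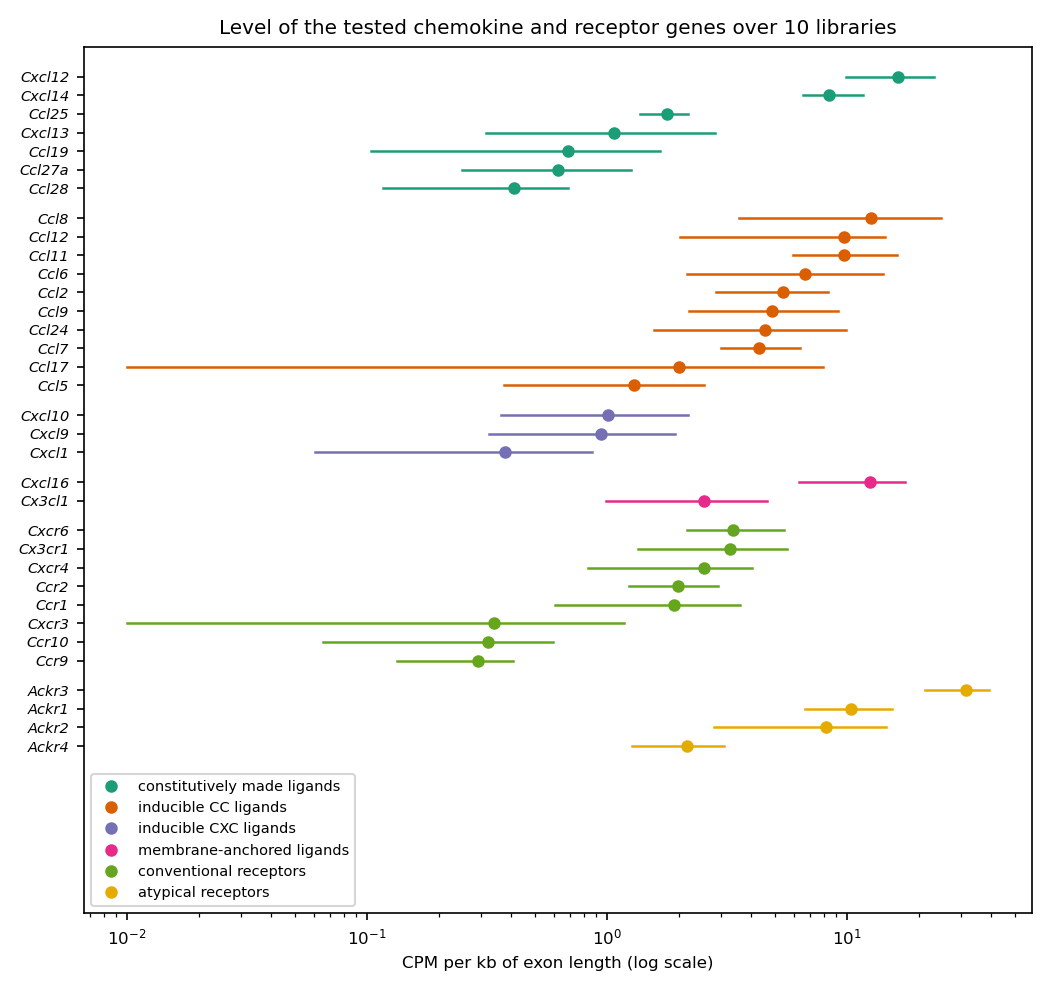
Level of 34 of the 35 tested members as CPM per kb of exon (x axis, log scale), with the point at the mean of 10 libraries and the line from the lowest to the highest library, coloured by role; a line that reaches a library at 0 is drawn from 0.01. Ackr3 and Cxcl12 have the highest means, at 31.3 and 16.3 CPM per kb.

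The other 29 members were not tested. Of these, 12 were at 0 in all 10 libraries: Cxcr1, Ccl20, Ccl21b, Ccl27b, Cxcl15 and Ccl1 on chromosomes, and 6 scaffold copies of Ccl19, Ccl21 and Ccl27 genes. The remaining 17 had total counts of 2 to 70 over all libraries. They include the receptors Ccr3, Ccr4, Ccr6, Ccr7, Ccr8, Cxcr2 and Cxcr5 of granulocytes, lymphocytes and dendritic cells. The untested ligands above 0 were Ccl3, Ccl4, Ccl22, Ccl26, Cxcl2, Cxcl3, Cxcl5, Cxcl17, Ccl21a and the scaffold copy of Ccl21b. Ccl19, Ccl21 and Ccl27 genes have near-identical copies, between which reads may be split or dropped, so their levels are uncertain.

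Among receptors, Ccr1 (ENSMUSG00000025804, chr9:123962124-123968692 on the minus strand, GRCm38) showed the clearest difference. It binds Ccl3, Ccl5, Ccl6 and Ccl9 and draws monocytes and neutrophils. Values below are given in the library order 1, 4, 5 for Mkx-CreER/flox, 1, 2, 4 for Mkx-CreER/+ and 1 to 4 for Mkx flox/+, and the numbers are names only. Ccr1 CPM was 1.72, 2.85 and 1.85 in Mkx-CreER/flox, 5.62, 7.88 and 4.08 in Mkx-CreER/+, and 5.35, 6.25, 10.1 and 8.39 in Mkx flox/+. Every knockout library lay below all 7 controls, which held for 1 of 35 members and for 3.12% of all tested genes. The group means were 2.14 ± 0.618 (SD, n = 3), 5.86 ± 1.91 (n = 3) and 7.53 ± 2.15 CPM (n = 4). Ccr1 had a log2 fold change of -1.62 against both controls (SE 0.337, edgeR adjusted p = 0.0228), -1.80 against Mkx flox/+ (SE 0.362, adjusted p = 0.0121) and -1.43 against Mkx-CreER/+ (SE 0.373, adjusted p = 0.328).

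The call of Ccr1 against Mkx flox/+ held when any 1 library was left out, with adjusted p between 0.0112 and 0.0389 by edgeR. Against both controls it was lost without Mkx-CreER/+ 1 (adjusted p = 0.06), Mkx-CreER/+ 2 (0.0618) or knockout library 1 (0.0658) or 4 (0.0538). Over all settings of that comparison the edgeR, DESeq2 or voom adjusted p of Ccr1 lay between 0.000259 and 1. In bulk tendon RNA, fewer cells of a type and less RNA per cell cannot be told apart, and this holds for every difference given here. The macrophage marker sum moved the same way as Ccr1, as given above. With a macrophage list score as a covariate, chosen after seeing the data, the log2 fold change of Ccr1 was -0.70 against both controls and -0.85 against Mkx flox/+, and neither passed (edgeR adjusted p = 1 and 0.806).

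The bases before the RefSeq start of Ccr1 and Ackr2, the called receptors, are shown because chemokine system genes are classic targets of NF-kB. Each run covers 250 bases on the gene's own strand in GRCm38.p6, at chr9:123968693-123968942 (minus) for Ccr1 and chr9:121898105-121898354 (plus) for Ackr2, with a match to the NF-kB letters (GGGA, then any 3 bases, then TCC) in capitals.
Ccr1: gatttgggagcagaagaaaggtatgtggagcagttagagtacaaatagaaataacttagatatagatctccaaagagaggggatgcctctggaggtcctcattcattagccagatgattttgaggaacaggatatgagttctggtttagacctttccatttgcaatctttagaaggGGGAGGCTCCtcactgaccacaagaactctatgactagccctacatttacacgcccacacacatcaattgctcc
Ackr2: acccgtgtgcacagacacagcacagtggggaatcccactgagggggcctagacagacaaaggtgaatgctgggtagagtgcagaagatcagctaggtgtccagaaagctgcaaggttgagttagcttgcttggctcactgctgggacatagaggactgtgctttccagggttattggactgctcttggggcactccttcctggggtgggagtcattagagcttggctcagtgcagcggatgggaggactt
The Ccr1 run holds 1 match to these letters and the Ackr2 run none, searched on both strands. These letters are a narrow form of the NF-kB motif and looser forms were not searched. A run without a match may therefore still hold another form. A window was on hand for 27 of the 35 tested members, and 3 of these held an NF-kB match (Ccr1, Cxcl1 and Cxcl10). Of 32851 windows of all genes 3.86% held one. Here and for the motifs below, members were counted by gene, with a match in any window of the gene. The shares over all genes were counted by window, so the units differ. The AP-1 letters TGANTCA were in 3 of 27 (Ccl27a, Ccl9 and Cxcl10; 6.75% of all windows) and the PU.1 letters GAGGAAGT in 1 of 27 (Cxcr3; 2.44%). Neither motif was in the Ccr1 or Ackr2 run. A match is a description of letters, not a bound site.

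**Figure D3:**
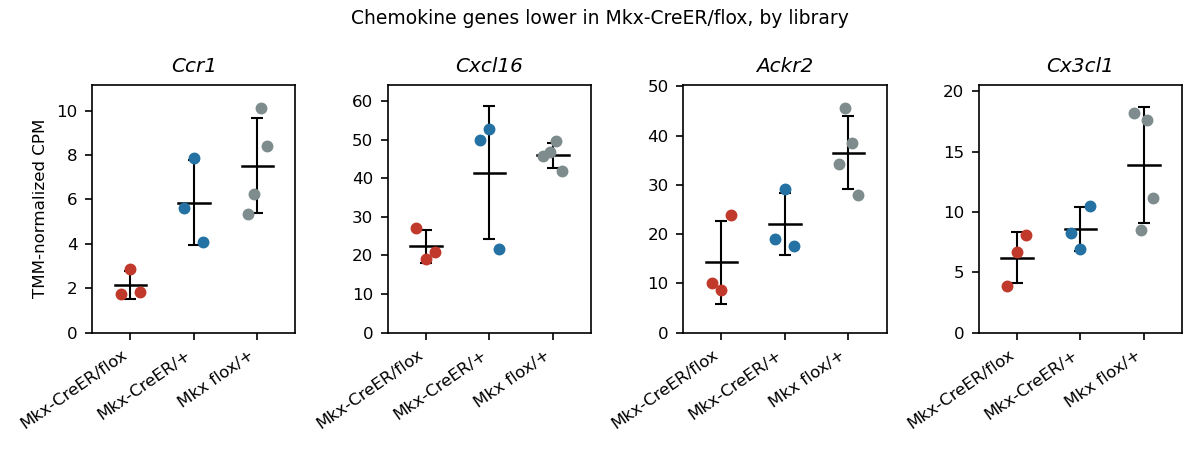
TMM-normalized CPM (y axis, from 0) of Ccr1, Cxcl16, Ackr2 and Cx3cl1 by library in the 3 genotypes, with the line at the group mean and bars of ± 1 SD. The 3 Mkx-CreER/flox points of Ccr1 lie between 1.72 and 2.85 CPM, below all 7 controls; for Cxcl16 the library Mkx-CreER/+ 4 lies among the knockout points.

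Ccr1 lies in a receptor cluster on chromosome 9, with Ccr9, Cxcr6, Ccr3 and Ccr2 among its neighbours. Of these 4, Ccr3 was not tested and the others did not pass in any comparison by edgeR. Cxcr6, the receptor of Cxcl16 on T and natural killer T cells, was 10.6, 7.32 and 6.43 CPM in Mkx-CreER/flox, 6.21, 4.63 and 6.94 in Mkx-CreER/+, and 4.19, 4.54, 7.16 and 6.59 in Mkx flox/+. Its highest library was a knockout, and its log2 fold change against both controls was 0.48 (SE 0.268, edgeR adjusted p = 0.33). T cell markers summed to 6.4 to 10.1, 6.3 to 10.9 and 3.7 to 9.5 CPM in the 3 genotypes.

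Ccr2, the receptor that brings monocytes to Ccl2, was 9.86, 14.4 and 8.35 CPM in Mkx-CreER/flox, 13.6, 19.7 and 14.2 in Mkx-CreER/+, and 14.8, 10.1, 17.2 and 11.8 in Mkx flox/+. The genotypes overlapped, with a log2 fold change of -0.42 against both controls (SE 0.242, edgeR adjusted p = 0.35). Whether the fold change of Ccr1 differs from those of its neighbours was not tested.

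Cx3cr1, the fractalkine receptor of resident macrophages and patrolling monocytes, was 19.3, 6.09 and 6.51 CPM in Mkx-CreER/flox, 14.4, 11.7 and 8.03 in Mkx-CreER/+, and 14.8, 25.3, 19.2 and 21.3 in Mkx flox/+. Library Mkx-CreER/flox 1 stood at the Mkx flox/+ level while the other 2 knockout libraries lay below all controls. The log2 fold change was -0.52 against both controls (SE 0.344, edgeR adjusted p = 0.424) and -0.94 against Mkx flox/+ (SE 0.378, adjusted p = 0.152). Without Mkx-CreER/flox 1, Cx3cr1 passed in both, at -1.284 (edgeR adjusted p = 0.0363) and -1.697 (adjusted p = 0.00746). It also passed by limma voom (adjusted p = 0.00207 and 0.000697). Against Mkx-CreER/+ the log2 fold change of Cx3cr1 with all libraries was -0.11 (SE 0.396, edgeR adjusted p = 0.954). Between the controls it was -0.83 (Mkx-CreER/+ against Mkx flox/+, SE 0.373, edgeR adjusted p = 0.99). Cxcr4, the signalling receptor of Cxcl12, was 4.52, 3.39 and 1.92 CPM in the knockout, 5.10, 7.25 and 1.51 in Mkx-CreER/+, and 4.58, 6.25, 6.31 and 4.92 in Mkx flox/+. Library Mkx-CreER/+ 4 was its lowest, so the knockout libraries overlapped the controls. Of the 9 conventional receptors tested, 6 had a negative fold change against both controls, with a median of -0.42 log2 units.

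Per length, the atypical receptors Ackr3, Ackr1 and Ackr2 exceeded 93.6%, 77.9% and 71.8% of tested genes, and Ackr4 exceeded 36.4%. Ackr2 (ENSMUSG00000044534, chr9:121898355-121911074 on the plus strand, GRCm38) internalises and degrades inflammatory CC chemokines such as Ccl2. Its CPM was 10.04, 8.74 and 24.0 in Mkx-CreER/flox, 19.1, 29.2 and 17.7 in Mkx-CreER/+, and 34.3, 45.6, 38.5 and 27.9 in Mkx flox/+. Knockout library 5 lay among the Mkx-CreER/+ values, and all knockout libraries lay below all Mkx flox/+ libraries. The means were 14.2 ± 8.43 (SD, n = 3), 21.99 ± 6.30 (n = 3) and 36.6 ± 7.40 CPM (n = 4). For Ackr2 the log2 fold change was -1.36 against Mkx flox/+ (SE 0.332, edgeR adjusted p = 0.0259), -0.996 against both controls (SE 0.305, adjusted p = 0.0769) and -0.63 against Mkx-CreER/+ (SE 0.344, adjusted p = 0.547). The controls themselves differed by -0.73 (Mkx-CreER/+ against Mkx flox/+, SE 0.322, edgeR adjusted p = 0.966), so the 2 controls were not shown to differ. The call against Mkx flox/+ was lost without knockout library 1 (adjusted p = 0.0904) or 4 (0.0953), or without Mkx flox/+ 1 (0.0548), 2 (0.0673) or 3 (0.059), and over all settings its adjusted p ran from 0.000796 to 0.762. Against both controls Ackr2 passed without Mkx-CreER/flox 5 (log2 fold change -1.61, edgeR adjusted p = 0.00816).

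Ackr3, which scavenges Cxcl12, was 88.0, 74.4 and 93.5 CPM in Mkx-CreER/flox, 124, 127 and 70.9 in Mkx-CreER/+, and 131, 116, 99.85 and 122 in Mkx flox/+. The knockout libraries lay below 6 of 7 controls, the exception being Mkx-CreER/+ 4. Its log2 fold change of -0.40 against both controls did not pass (SE 0.188, edgeR adjusted p = 0.249). Ackr4, a scavenger of Ccl19, Ccl21 and Ccl25, was 6.88, 7.12 and 10.8 CPM in the knockout, 16.6, 12.9 and 7.70 in Mkx-CreER/+, and 11.5, 16.2, 12.1 and 13.9 in Mkx flox/+. Again Mkx-CreER/+ 4 lay among the knockout values, and the log2 fold change against both controls was -0.64 (SE 0.265, edgeR adjusted p = 0.186).

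Ackr1, which presents chemokines on venular endothelium, was 9.41, 12.6 and 18.6 CPM in Mkx-CreER/flox, 18.5, 20.0 and 12.6 in Mkx-CreER/+, and 12.3, 11.5, 9.61 and 21.6 in Mkx flox/+. The genotypes overlapped throughout. Part of its exon length (25.7%) is shared with Cadm3 on the same strand, so its counts may hold reads of that gene. Likewise 8.9% of Ackr4 overlaps Acad11 on the other strand. All 4 atypical receptors had a negative fold change against both controls, with a median of -0.52. There limma voom called 3 of them (Ackr2, Ackr3 and Ackr4), DESeq2 called 1 and edgeR none (2 at an unadjusted p under 0.05). Of all genes, limma voom, DESeq2 and edgeR called 8.97%, 3.85% and 1.62% lower. Blood endothelial markers summed to 607 to 797 CPM in the knockout, 512 to 629 in Mkx-CreER/+ and 413 to 583 in Mkx flox/+, and the part of vessels in these values was not tested.

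Both membrane-anchored chemokines were lower against Mkx flox/+. Cxcl16 (ENSMUSG00000018920, chr11:70453983-70459984 on the minus strand, GRCm38) is a transmembrane chemokine and a scavenger receptor of oxidised lipoprotein, made by macrophages among other cells. Its CPM was 27.2, 19.05 and 20.8 in Mkx-CreER/flox, 50.1, 52.7 and 21.7 in Mkx-CreER/+, and 45.8, 46.9, 49.7 and 41.8 in Mkx flox/+. Of 7 controls, 6 lay above all knockout libraries and Mkx-CreER/+ 4 lay among them. The means were 22.4 ± 4.31 (SD, n = 3), 41.5 ± 17.2 (n = 3) and 46.0 ± 3.25 CPM (n = 4). For Cxcl16 the log2 fold change was -0.97 against both controls (SE 0.246, edgeR adjusted p = 0.0384), -1.05 against Mkx flox/+ (SE 0.266, adjusted p = 0.0297) and -0.89 against Mkx-CreER/+ (SE 0.278, adjusted p = 0.329). Without Mkx-CreER/+ 4, the control with the lowest macrophage sum, it also passed against Mkx-CreER/+ (log2 fold change -1.22, edgeR adjusted p = 0.0313). Of its exon length 18.3% lies opposite Zmynd15, and the strand setting of the counts was not given in the sources used here.

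Calls of Cxcl16 were less stable than those of Ccr1. Against both controls the edgeR call was lost without Mkx-CreER/+ 1 (adjusted p = 0.0881) or 2 (0.0906), knockout library 1 (0.0587), 4 (0.148) or 5 (0.0705), or Mkx flox/+ 1 (0.0648), 2 (0.0645) or 3 (0.0655). Against Mkx flox/+ it was lost without Mkx-CreER/flox 4 (0.115) or 5 (0.0545), or Mkx flox/+ 1 (0.065), 2 (0.0642) or 3 (0.0715). Over all settings the adjusted p ran from 0.00079 to 1 against both controls. With the macrophage score as a covariate its log2 fold change against both controls was -0.20 (edgeR adjusted p = 1).

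Cx3cl1 (ENSMUSG00000031778, chr8:94772009-94782427 on the plus strand, GRCm38), or fractalkine, tethers and attracts cells that bear Cx3cr1. It was 3.89, 6.68 and 8.06 CPM in Mkx-CreER/flox, 8.29, 6.89 and 10.5 in Mkx-CreER/+, and 18.2, 8.52, 17.6 and 11.2 in Mkx flox/+. All knockout libraries lay below all Mkx flox/+ libraries, the nearest pair being 8.06 and 8.52, and overlapped Mkx-CreER/+. The means were 6.21 ± 2.12 (SD, n = 3), 8.56 ± 1.83 (n = 3) and 13.9 ± 4.79 CPM (n = 4). For Cx3cl1 the log2 fold change was -1.16 against Mkx flox/+ (SE 0.33, edgeR adjusted p = 0.047), -0.81 against both controls (SE 0.302, adjusted p = 0.143) and -0.46 against Mkx-CreER/+ (SE 0.344, adjusted p = 0.672). This call lay close to the threshold and was lost without Mkx-CreER/+ 1 (0.0644) or 2 (0.0568), knockout library 1 (0.119) or 4 (0.112), or Mkx flox/+ 1 (0.119), 3 (0.125) or 4 (0.0512), over an adjusted p range of 0.00972 to 0.775 for all settings. With only the groups compared in the fit it was 0.0748. Its neighbours on chromosome 8, Ccl22 and Ccl17, are ligands of Ccr4. Ccl17 did not pass by edgeR, DESeq2 or limma voom, and Ccl22 was not tested.

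Summed over both membrane-anchored ligands, the level was 25.7 to 31.1 CPM in Mkx-CreER/flox, 32.2 to 59.6 in Mkx-CreER/+ and 53.0 to 67.3 in Mkx flox/+. The knockout range lay below all controls, with Mkx-CreER/+ 4 nearest to it. In the macrophage marker sums the knockout libraries likewise lay below all controls and Mkx-CreER/+ 4 was the lowest control, while the order of libraries within Mkx-CreER/flox and within Mkx flox/+ differed between these sums. The part of macrophages in the level was not tested.

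**Figure D4:**
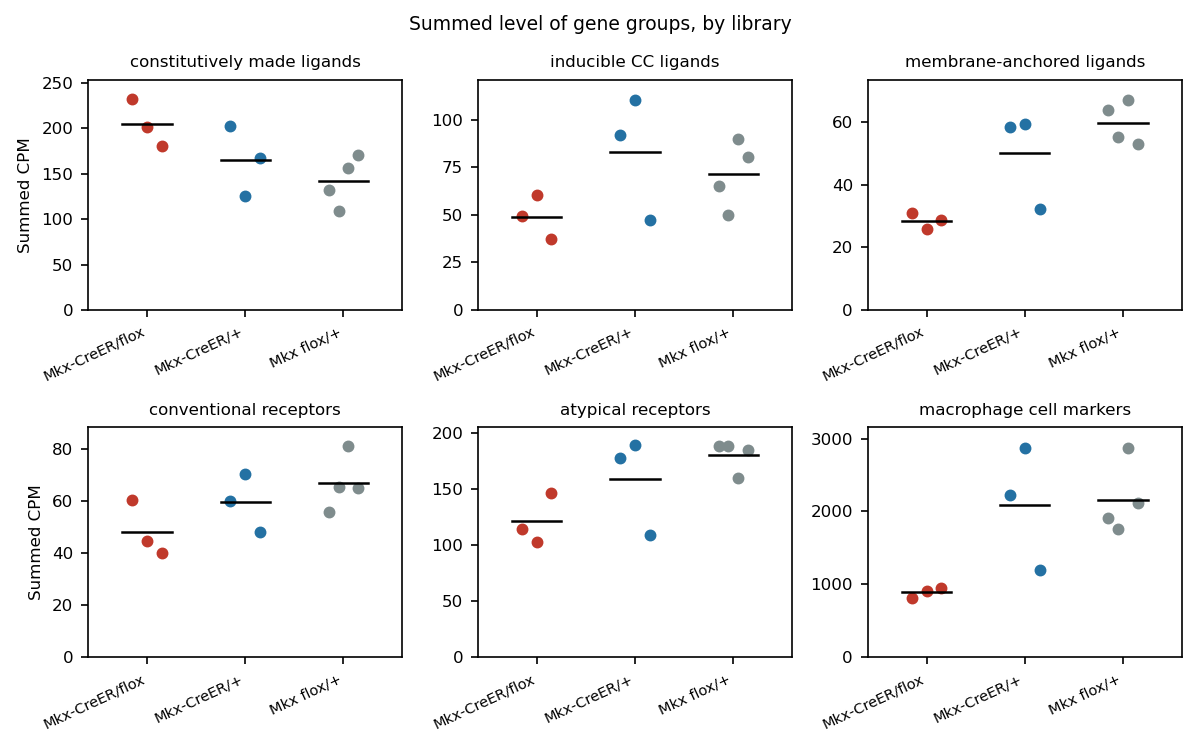
Summed CPM by library (y axes, from 0) of 5 groups of chemokine system genes and of the macrophage marker list in the 3 genotypes, with the line at the group mean. The sums of membrane-anchored ligands (25.7 to 31.1 CPM) and of macrophage markers (810 to 954 CPM) in Mkx-CreER/flox lie below all 7 controls, whereas the other groups overlap.

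Per length, 8 of the 10 tested inducible CC ligands exceeded 54% to 82.3% of tested genes, and Ccl17 and Ccl5 exceeded 34.5% and 25.9%. None of the 10 passed against both controls by edgeR (3 at an unadjusted p under 0.05, all lower). DESeq2 called 1 of them (Ccl24) and limma voom 1 (Ccl9), beside 3.85% and 8.97% of all genes called lower. A negative fold change was found for 9 of 10 against both controls, with a median of -0.94 log2 units, and for all 10 against Mkx-CreER/+, where the median was -1.06. Ccl24, an eotaxin made by alternatively activated macrophages that recruits eosinophils through Ccr3, was 2.90, 2.602 and 2.44 CPM in Mkx-CreER/flox, 7.32, 9.04 and 2.10 in Mkx-CreER/+, and 6.62, 2.04, 10.97 and 12.8 in Mkx flox/+. Of 7 controls, 5 lay above the knockout and 2 below it. The log2 fold change was -1.42 against both controls (SE 0.528, edgeR adjusted p = 0.146; DESeq2 adjusted p = 0.0441).

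Ccl9 and Ccl6, rodent chemokines of macrophages that bind Ccr1, lie side by side on chromosome 11. Ccl9 was 12.0, 7.36 and 6.73 CPM in Mkx-CreER/flox, 18.7, 28.1 and 8.16 in Mkx-CreER/+, and 9.73, 15.1, 25.4 and 16.7 in Mkx flox/+. Ccl6 was 3.89, 10.8 and 5.03 CPM in the knockout, 13.8, 25.5 and 4.71 in Mkx-CreER/+, and 10.5, 6.93, 21.9 and 17.7 in Mkx flox/+. For both genes Mkx-CreER/+ 4 and Mkx flox/+ 1 lay among the knockout values, as did Mkx flox/+ 2 for Ccl6. Their log2 fold changes against both controls were -1.02 (SE 0.376, edgeR adjusted p = 0.141) and -1.12 (SE 0.529, adjusted p = 0.255). Ccl5, a T cell and macrophage ligand of Ccr1, was 1.18, 0.442 and 0.665 CPM in the knockout, 1.26, 1.16 and 0.715 in Mkx-CreER/+, and 2.43, 2.27, 2.05 and 0.36 in Mkx flox/+. It stood at -0.87 against both controls (SE 0.598, edgeR adjusted p = 0.449), a few counts above the limit of detection. Each of these 3 ligands of Ccr1 thus had a negative fold change and none passed by edgeR with all libraries. Ccl9 passed by limma voom (adjusted p = 0.0255) and by edgeR without Mkx-CreER/+ 4 (adjusted p = 0.0395).

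The monocyte chemoattractants Ccl2, Ccl7, Ccl8 and Ccl12 share a cluster on chromosome 11 with the eotaxin Ccl11. Ccl12, a mouse ligand of Ccr2, was 1.09, 5.11 and 2.66 CPM in Mkx-CreER/flox, 7.18, 7.78 and 4.92 in Mkx-CreER/+, and 4.67, 5.11, 7.45 and 6.35 in Mkx flox/+. Library Mkx-CreER/flox 4 reached the lower controls, and the log2 fold change against both controls was -1.05 (SE 0.389, edgeR adjusted p = 0.139). Without that library the fold change of Ccl12 was -1.721 (edgeR adjusted p = 0.0631). Ccl8 was 2.71, 7.12 and 3.85 CPM in the knockout, 9.47, 12.6 and 6.56 in Mkx-CreER/+, and 7.01, 1.82, 5.40 and 8.27 in Mkx flox/+. Its log2 fold change against Mkx-CreER/+ was -1.04 (SE 0.473, edgeR adjusted p = 0.452), and the knockout overlapped both controls. Ccl2, the main monocyte chemoattractant and a substrate of Ackr2, was 5.07, 7.02 and 3.25 CPM in the knockout, 9.54, 6.31 and 6.27 in Mkx-CreER/+, and 7.01, 4.20, 4.04 and 8.99 in Mkx flox/+. The 3 genotypes overlapped for Ccl2, at -0.37 against both controls (SE 0.33, edgeR adjusted p = 0.579).

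Ccl11 had a positive fold change against both controls, where its 4 neighbours had negative ones. It was 13.5, 14.8 and 8.58 CPM in Mkx-CreER/flox, 17.5, 11.5 and 9.13 in Mkx-CreER/+, and 8.76, 6.47, 8.47 and 6.47 in Mkx flox/+. Here the libraries carrying CreER lay together and mostly above those without it, and all Mkx-CreER/+ values exceeded all Mkx flox/+ values, as for 2.88% of all tested genes. The log2 fold change was 0.70 against Mkx flox/+ (SE 0.282, edgeR adjusted p = 0.151), 0.33 against both controls (SE 0.25, adjusted p = 0.504) and 0.74 for Mkx-CreER/+ against Mkx flox/+ (SE 0.28, adjusted p = 0.85). None of these passed by edgeR, and limma voom called Ccl11 against Mkx flox/+ (adjusted p = 0.0392). Against Mkx-CreER/+ alone the log2 fold change of Ccl11 was -0.042 (SE 0.297, edgeR adjusted p = 0.979), near 0, and it turned direction in 5 of 19 other settings. Whether Ccl11 differs from its neighbours was not tested.

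Per length, the tested inducible CXC ligands Cxcl10, Cxcl9 and Cxcl1 exceeded 21.6%, 20.1% and 8.43% of tested genes, and Cxcl1 rested on few counts. None of the 3 passed by edgeR, DESeq2 or limma voom against either or both controls, nor at an unadjusted p under 0.05 by edgeR. Cxcl9, an interferon-induced ligand of Cxcr3, was 3.53, 5.79 and 1.92 CPM in Mkx-CreER/flox, 2.96, 3.36 and 2.36 in Mkx-CreER/+, and 0.973, 2.50, 2.56 and 2.52 in Mkx flox/+. Cxcl10, a second ligand of Cxcr3, was 1.54, 3.19 and 0.813 CPM in the knockout, 1.33, 2.26 and 1.68 in Mkx-CreER/+, and 3.70, 4.88, 2.05 and 1.44 in Mkx flox/+. Cxcl1, which draws neutrophils through Cxcr2, was 1.63, 1.13 and 0.444 CPM in the knockout, 0.592, 1.16 and 0.505 in Mkx-CreER/+, and 0.487, 0.114, 0.284 and 0.719 in Mkx flox/+. The genotypes overlapped for all 3, and neutrophil markers summed to only 1.0 to 6.2, 4.9 to 14.0 and 5.7 to 10.8 CPM in the same order. Interferon gamma (Ifng) and Il17a were at 0 in every library.

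Of the 7 constitutively made ligands tested, none passed by edgeR (at an unadjusted p under 0.05, Cxcl13 was lower and Cxcl12 higher against both controls), and DESeq2 and limma voom called 0 against both controls. Cxcl12 (ENSMUSG00000061353, chr6:117168535-117181367 on the plus strand, GRCm38), the stromal chemokine that retains Cxcr4-bearing cells, was 190, 165 and 150 CPM in Mkx-CreER/flox, 168, 96.6 and 134 in Mkx-CreER/+, and 95.4, 80.9, 123 and 134 in Mkx flox/+. All knockout libraries lay above all Mkx flox/+ libraries, which held for 1 of 35 members and for 10% of all tested genes, and overlapped Mkx-CreER/+. The log2 fold change was 0.49 against both controls (SE 0.193, edgeR adjusted p = 0.166) and 0.63 against Mkx flox/+ (SE 0.216, adjusted p = 0.0911). Pericyte and smooth muscle markers, from cells known to make Cxcl12, summed to 1268 to 1763 CPM in the knockout, 763 to 1049 in Mkx-CreER/+ and 740 to 996 in Mkx flox/+. Paratenon and loose fibroblast markers, also of stromal cells, went the other way, at 7810 to 14870, 12840 to 18680 and 18040 to 23870 CPM. The part of either in the Cxcl12 level was not tested.

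Cxcl14, a chemokine of skin and connective tissue, was 21.3, 16.3 and 13.3 CPM in Mkx-CreER/flox, 16.1, 12.1 and 13.6 in Mkx-CreER/+, and 17.2, 12.0, 15.2 and 16.3 in Mkx flox/+. Ccl25, the ligand of Ccr9, was 15.7, 16.2 and 12.7 CPM in the knockout, 10.9, 10.3 and 13.0 in Mkx-CreER/+, and 13.2, 13.0, 13.5 and 14.4 in Mkx flox/+. These 2 varied little between libraries. Cxcl13, the B cell chemokine, was 0.362, 0.687 and 0.518 CPM in the knockout, 3.26, 2.58 and 0.757 in Mkx-CreER/+, and 1.07, 1.02, 0.568 and 1.56 in Mkx flox/+. Its knockout values overlapped only Mkx flox/+ 3 among the controls, but rested on few counts, with a log2 fold change of -1.48 against both controls (SE 0.593, edgeR adjusted p = 0.173). Ccl19 and Ccl27a lay between 0.090 and 1.44 CPM and between 0.592 and 2.99 CPM over the 10 libraries, without separation of genotypes.

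For the pairs of ligand and receptor around the called genes, the partners did not pass by edgeR with all libraries, whereas limma voom called Cx3cr1 and Ccl9, as given above. Cxcl16 fell while its receptor Cxcr6 stood at 0.48 log2 units, and Ackr2 was lower beside Ccl2, its substrate, at -0.37 against both controls. Cx3cl1 and Cx3cr1 were both lower against Mkx flox/+ (-1.16, called, and -0.94, not called). Against Mkx-CreER/+ they stood at -0.46 and -0.11, neither called by edgeR. For Mkx-CreER/+ against Mkx flox/+ they stood at -0.70 and -0.83, again not called. Cxcl12 and its scavenger Ackr3 lay on opposite sides of 0, at 0.49 and -0.40, neither of them called. The difference between the members of a pair was not tested.

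Comparing the controls with each other, Mkx-CreER/+ against Mkx flox/+, gave 0 of 35 members by edgeR, beside 0% of all genes, and 0 by DESeq2 (0.219% of all genes) and limma voom (0%). At an unadjusted p under 0.05 it held 4 members, Ackr2, Cx3cl1, Cx3cr1 and Ccl11, beside 4.98% of all genes. Cx3cr1 was lower in all Mkx-CreER/+ libraries than in all Mkx flox/+ libraries (1 of 35 members, against 3.89% of all tested genes).

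Genes close to the system but outside the symbol rule were counted in 3 lists. For reference, 1.62% of all tested genes passed as lower and 3.03% as higher against both controls by edgeR, and 2.9% as lower against Mkx flox/+. Against Mkx-CreER/+ edgeR called 0 genes of each list (4, 4 and 2 at an unadjusted p under 0.05, in the order below, beside 10.7% of all genes). There DESeq2 called 2, 1 and 0, and limma voom 2, 3 and 1, beside 0.809% and 4.46% of all genes. The 16 related chemokine genes were Xcl1, Xcr1, Pf4, Ppbp, Ccrl2, Cmklr1, Gpr1, Rarres2, Mif, Cd74, Dpp4, Pitpnm3, Cklf, Cmtm3, Cmtm6 and Cmtm7. Of these, 15 were tested and 14 had a negative fold change against both controls, with a median of -0.57 log2 units. Pf4, the platelet and macrophage chemokine, fell from 85.3 ± 35.6 (SD, n = 3) and 87.3 ± 24.5 CPM (n = 4) in Mkx-CreER/+ and Mkx flox/+ to 36.3 ± 6.80 (n = 3), a log2 fold change of -1.25 (SE 0.283, edgeR adjusted p = 0.0289). Cd74, the invariant chain and Mif receptor, had a log2 fold change of -1.01 and fell (SE 0.254, edgeR adjusted p = 0.0381). Against Mkx flox/+, Pf4, Cmtm3 and Cmtm7 fell and Xcr1, a dendritic cell receptor, rose. Xcr1 was 3.26, 1.13 and 0.222 CPM in the knockout, 0.444, 1.05 and 1.05 in Mkx-CreER/+ and at 0 in 3 of 4 Mkx flox/+ libraries, with 0.114 in the fourth (edgeR adjusted p = 0.0184). These are few counts and no fold is given. Against both controls the count of 2 became 0 without knockout library 1 or 4, Mkx-CreER/+ 1 or 2, or Mkx flox/+ 1, 1 without knockout library 5 or Mkx flox/+ 2 or 3, and 5 without Mkx-CreER/+ 4. It was 4 by DESeq2 and 6 by limma voom, beside 9.04% and 18.7% of all genes. With no filter it was 4, with both controls as 1 group 1, and with the muscle or the macrophage score 0. Against Mkx flox/+ the count of 4 was 8 by limma voom (beside 17.8% of all genes), 1 with the muscle score and 0 with the macrophage score. It became 0 without Mkx flox/+ 1, 1 without knockout library 1 or 4 and 2 without Mkx flox/+ 2 or 3.

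Of 36 genes of chemokine receptor signalling, 2 fell and 0 rose against both controls, and 3 fell and 0 rose against Mkx flox/+. Ncf1, a subunit of the phagocyte oxidase, fell from 18.9 ± 5.60 and 19.3 ± 6.97 CPM to 6.204 ± 1.57, a log2 fold change of -1.61 (SE 0.294, edgeR adjusted p = 0.0167). Pik3cg, the leukocyte PI3-kinase that Gi-coupled receptors activate, fell as well, at -0.98 log2 units (SE 0.202, edgeR adjusted p = 0.0224). Elmo1, an adaptor for Rac activation, fell against Mkx flox/+ by 0.68 (SE 0.184, edgeR adjusted p = 0.0381). Against both controls limma voom called 10 of the 36 lower and DESeq2 4, beside 8.97% and 3.85% of all genes, with 0 higher by either tool and by edgeR at an unadjusted p under 0.05. The edgeR count of 2 became 1 (Ncf1) without Mkx-CreER/+ 1 or 2 or knockout library 4, 4 without Mkx-CreER/+ 4 and 5 without knockout library 5. Against Mkx flox/+ the count of 3 became 7 without knockout library 5. By DESeq2 it was 5 and by limma voom 12, beside 11.6% and 17.8% of all genes. With the muscle or the macrophage score it was 0 in both comparisons.

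Of the 24 upstream cytokine and NF-kB genes, 17 were tested and 1 fell against both controls, Nfkbia, the inhibitor that NF-kB itself induces (log2 fold change -0.82, SE 0.22, edgeR adjusted p = 0.0479). Without any 1 of 8 libraries (knockout 1 or 4, Mkx-CreER/+ 1 or 2, or any Mkx flox/+ library) that count was 0. It was also 0 with both controls as 1 group or with either score, and 3 by limma voom, beside 18.7% of all genes. Against Mkx flox/+ edgeR called 0 of these 17 genes (4 at an unadjusted p under 0.05), beside 7.27% of all genes. DESeq2 called 2 and limma voom 4 there, beside 11.6% and 17.8% of all genes. For the 3 lists together, 5 genes fell against both controls by edgeR. Macrophage markers moved with them and their part was not tested, and with the macrophage score as a covariate 0 of them passed.

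**Figure D5:**
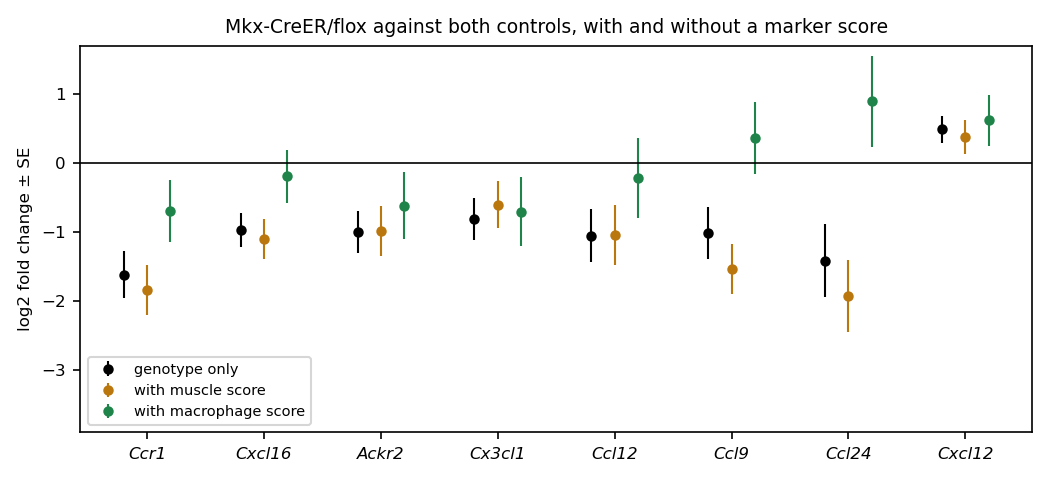
Log2 fold change (y axis, log2 units, bars ± 1 SE from edgeR) of 8 chemokine system genes in Mkx-CreER/flox against both controls, with genotype alone (black), with a skeletal muscle list score (orange) and with a macrophage list score (green) as a covariate. With the macrophage score Ccr1 moves from -1.62 to -0.70 and Cxcl16 from -0.97 to -0.20, Ccl9 and Ccl24 come to lie above 0 (0.365 and 0.894), and none of the 8 genes passes with either score.

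With the skeletal muscle score as a covariate, the log2 fold changes of Ccr1 (-1.83, edgeR adjusted p = 0.0608) and Cxcl16 (-1.10, adjusted p = 0.12) against both controls were as large as without it. Against Mkx flox/+, Ccr1 passed with the muscle score (log2 fold change -2.12, edgeR adjusted p = 0.0465), whereas Cxcl16, Ackr2 and Cx3cl1 did not (adjusted p 0.128, 0.163 and 0.323). The macrophage marker sum of every knockout library lay below that of every control, so genotype and macrophage level cannot be told apart in this design. The same holds for tendon markers (23870 to 31320 CPM in the knockout, 39950 or more in controls). It also holds for pericyte and smooth muscle markers (1268 to 1763 CPM in the knockout, 1049 or less in controls).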

How the data were processed

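The authors deposited 1 table of raw counts by Ensembl gene, from 10 Achilles tendon libraries prepared with RamDA-seq, which reads total RNA from small amounts. Per the submitters' processing notes, fastp, STAR and mm10 were used, and the counting tool, annotation release, strand setting and handling of multi-mapped reads were not given in the sources used here. Columns of Mkx flox/+ carry the sample's number, the others were matched by genotype only, and 0 columns were left unused.

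Symbols, positions and exon lengths came from GENCODE vM21 by Ensembl identifier. In R 4.3.3 with edgeR 4.0.16, filterByExpr kept 16017 genes, TMM scaled the libraries and 1 robust quasi-likelihood model with a term per genotype was fitted to all 10 libraries, with 4 contrasts and Benjamini-Hochberg adjustment over all genes at 0.05. Both controls had equal weight. Standard errors were taken as the fold change over the root of F. Alternatives used DESeq2 1.42.0, limma 3.58.1 (voom with sample weights), other scalings and filters, marker scores as covariates and left-out libraries. The fit was tested on simulated data.

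Named with values in every library were called members, up to 6 members per role of highest level per length, and partners of called members. Ccl24, Ccl5 and the members under an unadjusted p of 0.05 were added after their values were seen. The members and lists were chosen with earlier results of these data known. Promoter sequences are from RefSeq (GRCm38.p6). Cxcl11 was not analysed here. Counts, medians and sums include 1 tested member whose own values are not reported here.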

Additional observations from a re-analysis of the deposited data

Results flagged for a closer look

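In Mkx flox/+, 3 values stood far from those of the other 3 libraries, by the gap to the nearest value over the whole range. Such a gap is found by chance in about 1 in 20 groups, and 34 members were looked at. Ccl19 was 1.44 CPM in Mkx flox/+ 4 against 0.284 to 0.454 in the others. Cxcr3 was 1.56 CPM in the same library against 0.114 to 0.227. Cxcl9 was 0.973 CPM in Mkx flox/+ 1 against 2.50 to 2.56, the lowest of the 4. None of these genes was called in any comparison.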

How the results depend on the processing

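The count of members called against both controls was 2, and it was 4 by DESeq2, 7 by limma voom, 0 with the muscle score and 0 with the macrophage score as a covariate, and 0 to 3 with 1 library left out. Against Mkx-CreER/+ the count of 0 became 1 by DESeq2 and 3 by limma voom, and 0 to 1 with 1 library left out. Against Mkx flox/+ the count of 4 became 9 by limma voom, 1 with the muscle score, 0 with the macrophage score and 1 to 4 with 1 library left out. Between the controls it was 0 in every setting run. RLE and upper-quartile scaling, no filter and a stricter filter kept each of these counts of members within 1.5 times. For left-out libraries and marker scores, here and above, the share of all genes passing in the same fit is not given. Such counts do not show whether lost calls are particular to the members or lists. Of 1101 pairs of a named fold change and an alternative setting, 949 kept direction and side of the threshold, 114 lost their call, 23 gained one and 15 turned direction. With the macrophage score as a covariate the log2 fold change turned to 0.894 (Ccl24), 0.365 (Ccl9), 1.25 (Ccl6), 0.043 (Ccr2), 0.048 (Ackr3) and 0.079 (Nfkbia) against both controls, 0.31 (Ccl9) and 0.389 (Ccl11) against Mkx-CreER/+, and 0.722 (Ccl24) and 0.42 (Ccl9) against Mkx flox/+. Between the controls, the fold change of Cxcl16 ran from -0.364 to 0.16 with 1 library left out and turned direction without Mkx-CreER/+ 4. The fold change of Ccl11 against Mkx-CreER/+, -0.042, also turned to 0.066 by limma voom and 0.034 with the muscle score, and ran from -0.253 to 0.238 with 1 library left out, above 0 without Mkx-CreER/+ 1 (0.238) or Mkx-CreER/flox 5 (0.146). The cause of these changes was not tested. No paired analysis was possible because the column numbers of 2 genotypes do not carry the replicate numbers of the labels, so the replicate block was not run. Members below about 1 CPM rest on few counts.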
